A study of Mus musculus with 2 samples.

Results

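The genes described here carry fatty acids inside the cell or build, coat and empty lipid droplets: the fatty acid binding protein genes Fabp1, Fabp4 and Fabp5, the lipase gene Lpl and its inhibitor Angptl4, the droplet genes Cidec, Plin2 and Plin3, and the lipolysis genes Pnpla2 and Hilpda. They were chosen by name and matched to array rows whose platform annotation gives 1 gene symbol. All 10 were found, in 14 rows, among 22180 genes. All 10 passed the filter on low values that left 12516 genes.

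The study asked how loss of PIKfyve, the lipid kinase behind phosphatidylinositol 3,5-bisphosphate of the endolysosomal system, changes gene expression in alveolar macrophages. The cells came from lungs of adult C57BL6 littermates and were sorted as DAPI-negative, Siglec-F+ CD11c+ cells after collagenase digestion. The wild type group is described as PIKfyve f_f and the PIKfyve KO group as PIKfyve f_f_lysm_cre, so both carried the floxed alleles. The Cre of the knockout is driven from the lysozyme locus, which is active in myeloid cells in general, and the number of mice behind each array is not stated. There was 1 Affymetrix array for each genotype, so no difference below has a replicate error or a test. Values are RMA values on the log2 scale, as deposited. Differences are knockout minus wild type, and array signals compress large folds.

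In what follows a pair of values gives the array labelled wild type first and the array labelled knockout second. Pikfyve itself read 5.68 and 5.95. Whether its probes fall in the deleted exons is not known here, so its row does not check the labels, and the arrays are named by their labels throughout. Receptor genes for smell, pheromones and taste, as a class best known from sensory tissue, served as background at their 95th percentile, 5.37 and 5.31. All 11 alveolar macrophage markers measured apart from the described genes lay above it on both arrays. Of the genes behind the sort, Siglecf read 9.27 and 8.54 and Itgax (CD11c) read 10.03 and 10.39.

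Alveolar macrophages take up and break down surfactant, which is mostly lipid, and depend on the nuclear receptor PPAR-gamma for their identity and lipid handling. Fatty acids freed outside the cell by lipoprotein lipase, or inside it from lysosomes, are bound by fatty acid binding proteins. They are then oxidised, used in signalling, or stored as triglyceride in droplets coated by perilipins. Adipose triglyceride lipase, encoded by Pnpla2, opens the breakdown of stored triglyceride. Several of these genes are textbook targets of PPARs, and Hilpda and Angptl4 also respond to hypoxia-inducible factors.

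RefSeq promoter windows (build GRCm38.p6) were matched by symbol for 6 of the 10 genes: Fabp1, Cidec, Plin2, Plin3, Hilpda and Pnpla2. Fabp4, Fabp5, Lpl and Angptl4 had none. The 3 windows below hold letters of the PPAR or hypoxia elements whose factors are described further on. The Cidec windows, with GCGTG on either strand as their only match, are not shown. Each runs 5′ to 3′ from 250 bases before an annotated start to 20 bases after it. Capitals mark matches to AGGTCANAGGTCA with up to 2 mismatches, to ACGTG, to GCGTG or to CACGTG, on either strand.
Fabp1 (chr6:71199629-71199898, plus strand): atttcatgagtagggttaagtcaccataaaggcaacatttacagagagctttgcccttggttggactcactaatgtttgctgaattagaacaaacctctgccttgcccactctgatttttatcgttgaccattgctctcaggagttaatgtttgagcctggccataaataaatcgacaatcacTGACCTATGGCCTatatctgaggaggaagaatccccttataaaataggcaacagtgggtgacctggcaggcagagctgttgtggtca
Plin2 (chr4:86670040-86670309, minus strand): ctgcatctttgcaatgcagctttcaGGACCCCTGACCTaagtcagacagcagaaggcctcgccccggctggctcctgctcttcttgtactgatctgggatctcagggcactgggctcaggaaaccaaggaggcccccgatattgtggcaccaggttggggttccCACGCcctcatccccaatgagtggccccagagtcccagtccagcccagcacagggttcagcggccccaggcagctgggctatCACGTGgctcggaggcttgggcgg
Hilpda (chr6:29272376-29272645, plus strand): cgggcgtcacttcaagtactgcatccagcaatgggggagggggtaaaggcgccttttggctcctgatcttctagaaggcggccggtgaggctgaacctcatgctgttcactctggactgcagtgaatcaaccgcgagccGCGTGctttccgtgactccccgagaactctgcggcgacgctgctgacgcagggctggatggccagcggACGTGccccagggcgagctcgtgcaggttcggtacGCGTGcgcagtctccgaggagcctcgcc

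In the Fabp1 window the capitals are 1 copy of the direct repeat bound by PPAR and RXR, TGACCTATGGCCT as read on this strand, with 1 mismatch, 55 to 67 bases before the start. The Plin2 window holds GGACCCCTGACCT, a match with 2 mismatches, 213 to 225 bases before the start. It also holds CACGC, which is GCGTG on the other strand, 82 to 86 bases before the start. An E-box, CACGTG, lies across the start itself and contains ACGTG on both strands. The Hilpda window holds ACGTG once and GCGTG in 2 places, and its other annotated start has no match. The downstream Cidec start has GCGTG and its upstream start CACGC, the same letters on the other strand, while the Plin3 and Pnpla2 windows hold no match. Of all 32851 RefSeq windows of this length, 3.47% hold the direct repeat at this tolerance, 17.9% hold ACGTG, 30.0% hold GCGTG and 6.57% hold CACGTG. These are matches of letters only, and no binding was measured.

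The 10 genes were split in direction. Of them, 4 were higher in the array labelled knockout (Fabp5, Fabp4, Hilpda and Plin3) and 6 were lower (Lpl, Cidec, Fabp1, Angptl4, Pnpla2 and Plin2). Fabp4 and Fabp5 were at least 1.5-fold higher, against 4.45% of all genes that passed the filter. Lpl and Cidec were at least 1.5-fold lower, against 2.66% of all genes. That is 4 of the 10 in either direction, beside 7.11% of all genes. None was 2-fold apart, which 0.927% of genes were on the higher side and 0.336% on the lower side. The median of the 10 differences was -0.11 and that of all genes 0.00.

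**Figure D1:**
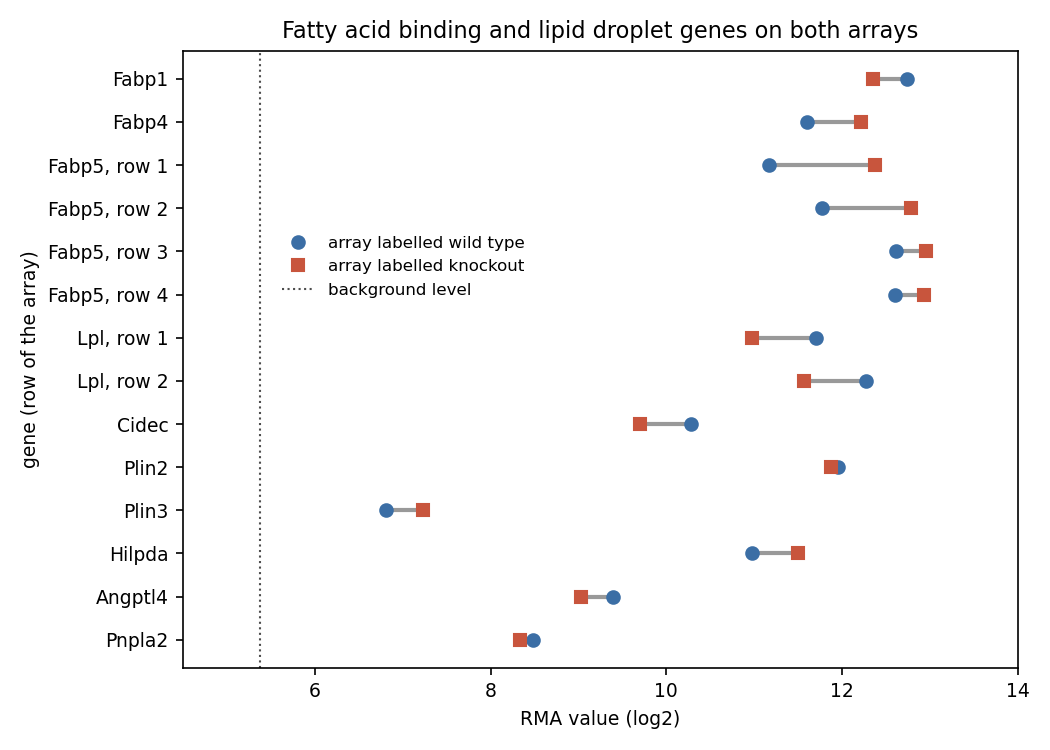
RMA values (log2, horizontal axis) of the 14 array rows of the 10 genes; blue circles are the array labelled wild type, red squares the array labelled knockout, grey bars join them, and the dotted line is the higher of the 2 background levels, 5.37. All 4 rows of Fabp5 and the row of Fabp4 lie further right in the knockout array, both rows of Lpl and the row of Cidec further left, and Plin2 at nearly the same place.

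The fatty acid binding protein genes did not move as 1 group. Fabp4, the form of adipocytes and macrophages, read 11.60 and 12.22, a difference of 0.62 or 1.54-fold. Fabp5, the epidermal form that macrophages also make, averaged 12.04 and 12.76 over its 4 rows, a difference of 0.72 or 1.64-fold. Fabp1, the liver form and a marker of mouse alveolar macrophages, went the other way, with 12.74 and 12.36, a difference of -0.38 or 1.31-fold. So the knockout array was the higher one for Fabp4 and Fabp5 and the lower one for Fabp1.

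The rows of Fabp5 shared a direction and differed in size. The first row read 11.16 and 12.37, a difference of 1.21 or 2.31-fold. The second read 11.78 and 12.78, a difference of 1.0. The third read 12.62 and 12.95 and the fourth 12.61 and 12.94, with a difference of 0.33 in each. The gene is therefore over 1.5-fold apart in its mean and in 2 of its rows, and 1.26-fold apart in the other 2, whose wild type values were the higher ones. These differences span 0.88, and only 3.50% of the 742 genes with several rows that passed the filter spanned as much. Their median span was 0.20. Probe sequences were not used here, so it is not known whether the rows read the same transcript. The RefSeq table also lists 1 pseudogene named after Fabp5, with which probes could be shared.

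On the chromosome Fabp5 and Fabp4 stand in a run of related genes, in the RefSeq order Fabp5, Pmp2, Fabp9, Fabp4 and Fabp12. Fabp9, a form known from testis, read 7.16 and 6.27, 1.86-fold lower in the array labelled knockout. Pmp2, the myelin form, and Fabp12 lay below background on both arrays. The neighbours that were measured above background thus differed in sign, with Fabp5 at 0.72, Fabp9 at -0.90 and Fabp4 at 0.62. Elsewhere in the family, the heart form Fabp3 read 7.78 and 7.81. Of the 11 other family members measured, only Fabp3 and Fabp9 reached background on either array.

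Lpl was the member furthest below its wild type value. The lipase, which frees fatty acids from lipoprotein triglyceride and is secreted by macrophages, read 11.70 and 10.98 in its first row. Its second row read 12.28 and 11.57. The differences of -0.72 and -0.71 were 0.01 apart, where the median span of genes with several rows was 0.20. The mean, -0.72, is a 1.64-fold lower value. Angptl4, a secreted inhibitor of this lipase, was lower too, with 9.40 and 9.03, a difference of -0.36 or 1.29-fold.

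Other genes of lipoprotein lipase control were closer to 0 than Lpl, though Lmf1 (0.40) and Apoc2 (0.39) were further from it than Angptl4. Of the 12 that passed the filter, 4 were higher, 8 were lower and none was 1.5-fold apart, with a median of -0.11. Lmf1, which helps the lipase fold in the endoplasmic reticulum, read 7.63 and 8.03, and Apoc2, its apolipoprotein cofactor, read 7.54 and 7.93. Sel1l, which acts in the same maturation step, read 6.57 and 6.40. Gpihbp1, the endothelial anchor of the lipase, read 5.41 and 5.22, at the background level. Apoa5 and Apoc3 lay below background on both arrays.

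The droplet genes also differed in sign. Cidec, whose protein joins droplets into larger ones and which is a marker of mouse alveolar macrophages, read 10.28 and 9.70. That is a difference of -0.59, which lies at the 1.5-fold threshold itself and was -0.53, short of it, with the arrays centred on their medians. Plin2, the main droplet coat protein of macrophages, read 11.95 and 11.88, a difference of -0.07, smaller than that of 77.2% of the 626 genes of its level. Plin3, a coat protein of nascent droplets that also has a cytosolic pool, read 6.81 and 7.23, a difference of 0.42 or 1.33-fold. These droplet genes therefore showed no common direction, with the coat genes Plin2 close to equal and Plin3 higher, and Cidec lower.

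Among the other droplet coat, growth and biogenesis genes, 11 of the 14 that passed were higher and 3 were lower, with none 1.5-fold apart and a median of 0.19. Spg20, which encodes the droplet-associated protein spartin, was closest to the threshold at 0.56 (5.55 and 6.11). Tmem159, whose product works with seipin in droplet formation, read 7.82 and 8.31. Nsdhl, a sterol enzyme found on droplets, differed by 0.48 and the droplet enzyme gene Hsd17b11 by 0.39. Bscl2, which encodes seipin, read 10.28 and 10.56. Plin1 and Plin4, the adipocyte perilipins, stood just above background on both arrays, differing by 0.12 and 0.13. Plin5 read 4.40, below background, and 5.40, just above it, which is at least 1.02-fold higher, and Cidea was below it on both.

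The lipolysis genes differed little, apart from the inhibitor Hilpda. Pnpla2, the triglyceride lipase, read 8.48 and 8.33, a difference of -0.15 or 1.11-fold. Hilpda, a small droplet protein that inhibits it, read 10.98 and 11.49, a difference of 0.51 or 1.43-fold. The lipase and its inhibitor thus differed in opposite directions, with the lipase inside its local spread of 0.33. G0s2, another inhibitor of the same lipase, read 8.39 and 8.12, and Abhd5, its co-activator, 9.35 and 9.42.

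Of the 8 further lipolysis genes that passed, 3 were higher and 5 lower, none was 1.5-fold apart, and their median was -0.08. Lipa, the lysosomal acid lipase, was the highest of the differences at 0.26 (9.67 and 9.94), and G0s2 the lowest at -0.27. Mgll, which takes the last fatty acid off, read 8.86 and 9.02. Lipe, the hormone-sensitive lipase, lay below background on both arrays.

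**Figure D2:**
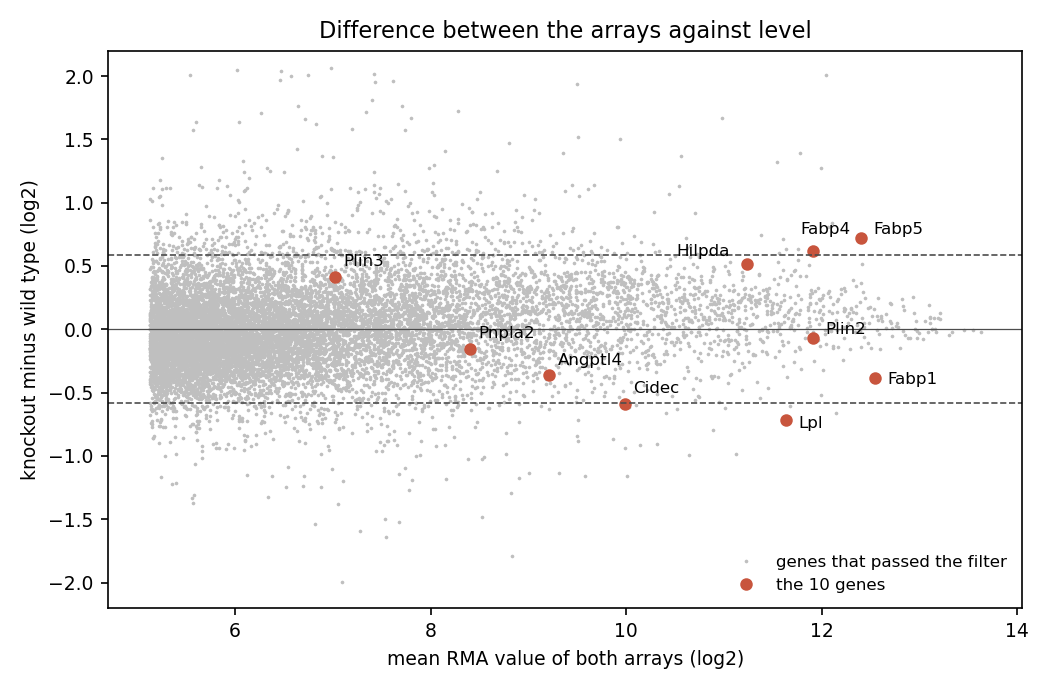
Difference between the arrays (knockout minus wild type, log2) against the mean RMA value of both (log2) for 12516 genes (grey), with the 10 genes in red; dashed lines mark 1.5-fold, and 13 genes lie outside the vertical range of 2.2. Fabp5 (0.72) and Fabp4 (0.62) lie above the upper line, Lpl (-0.72) below the lower one and Cidec (-0.59) on it.

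The size of these differences was set beside the scatter of genes of similar level. The local spread, the median absolute deviation in each of 20 bins of mean level scaled to match an SD, ran from 0.20 to 0.33, and it holds noise and real differences alike. Fabp5 and Lpl were each 3.54 local spreads from 0 and Fabp4 was 3.05, so 3 of 10 were more than 3 spreads apart, against 2.32% of all genes. Measured from the median difference of its bin in place of 0, a distance added after the data were seen, Lpl alone stayed past 3, at 4.12 spreads, against 2.34% of all genes. Fabp5 was then at 2.96 and Fabp4 at 2.47. From 0, Hilpda stood at 2.53, Cidec at 1.98 and Fabp1 at 1.90 spreads. Angptl4, at 1.16, and Plin3, at 1.46, were nearer, and Pnpla2 and Plin2 lay within 1 spread.

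Fabp1, Fabp4, Fabp5, Lpl, Plin2 and Hilpda share the highest of these bins, where 3.99% of 626 genes were at least 1.5-fold higher and 1.28% were that much lower. The share of genes in that bin at least as far apart was 2.72% for Fabp5, 2.88% for Lpl, 4.47% for Fabp4, 7.99% for Hilpda and 15.3% for Fabp1. The median difference of the bin was 0.12, so the higher members lay less far from their neighbours, and the lower members further, than their differences from 0. Centring the arrays on a loess curve of level gave Fabp4 0.52, under 1.5-fold, and Hilpda 0.41. It gave Lpl -0.82, Cidec -0.69 and Fabp1 -0.49.

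**Figure D3:**
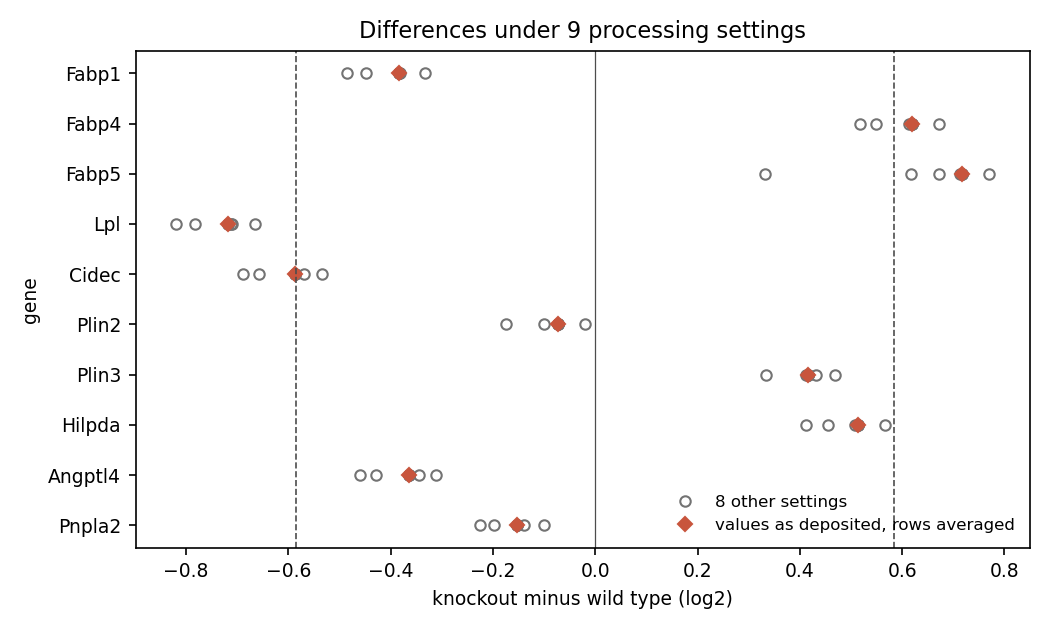
Difference of each of the 10 genes (knockout minus wild type, log2) with the values as deposited (red diamonds) and under 8 other settings of filter, normalization, offset and row choice (open circles); dashed lines mark 1.5-fold. Lpl lies beyond the lower line in all 9, and Fabp5 falls to 0.33 when its row with the highest mean stands for the gene.

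The nuclear receptors and hypoxia factors that act on these genes differed in either direction, from -0.46 to 0.39 among those that passed the filter. Pparg, which encodes PPAR-gamma, read 10.53 and 10.68, and its partner Rxra 5.97 and 6.24. Ppard read 5.68 and 5.52, while Ppara lay below background on both arrays. Cebpa, an adipocyte and macrophage transcription factor, had the largest difference of the group, -0.46, with 7.54 in the knockout array. Hif1a read 7.72 and 7.39, and Epas1, which encodes HIF-2-alpha, 5.60 and 5.99. The co-activator gene Ppargc1b read 6.71 and 6.36. Of the 12 factors that passed, 5 were higher, 6 lower and 1 equal on both arrays, with a median of -0.06 and none 1.5-fold apart.

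Other genes known to be induced by PPARs or by hypoxia also had medians close to 0. The PPAR list does not separate targets of PPAR-gamma from those of the other PPARs. Of 13 PPAR-induced genes that passed, 5 were higher, 7 lower and 1 equal, with a median of -0.02 that became 0.03 with median centring. The largest differences were those of the peroxisomal thiolase gene Acaa1b at -0.54 and of Ehhadh, another peroxisomal enzyme, at -0.29. The thioesterase gene Acot1 stood at -0.26, and Acadl, the largest difference on the higher side, at 0.21. Cpt1a, the entry enzyme of mitochondrial fatty acid oxidation, read 7.80 and 7.63, and Pdk4 read 6.90 and 6.95. None was 1.5-fold apart, while Fabp4 (0.62) and Lpl (-0.72), both known PPAR-gamma targets, differed by more and in opposite directions.

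Of 11 hypoxia-induced genes that passed, 8 were higher and 3 lower, with a median of 0.11 and none 1.5-fold apart. With the row of highest mean for each gene this median was -0.01, so its sign is not settled. Higd1a stood at 0.53 (7.99 and 8.51) and Bnip3 at 0.23. Adm read 5.56 and then 5.22, below background, which is at least 1.19-fold lower. Vegfa read 6.16 and 6.06. The described genes that hypoxia induces were split as well, with Hilpda at 0.51 and Angptl4 at -0.36.

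Fatty acid uptake and activation genes had a median of 0.22, with 7 of 9 that passed higher and 2 lower. Cd36, the scavenger receptor that takes up fatty acids, read 10.83 and 11.05. The transporter gene Slc27a4 differed by 0.55 (5.56 and 6.12) and the acyl-CoA synthetase gene Acsl4 by 0.48 (6.60 and 7.08). Dbi, which binds acyl-CoA, read 10.55 and 10.82. Cav1, the coat protein of caveolae, was the one past 1.5-fold, at least 2.17-fold higher as measured from background.

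**Figure D4:**
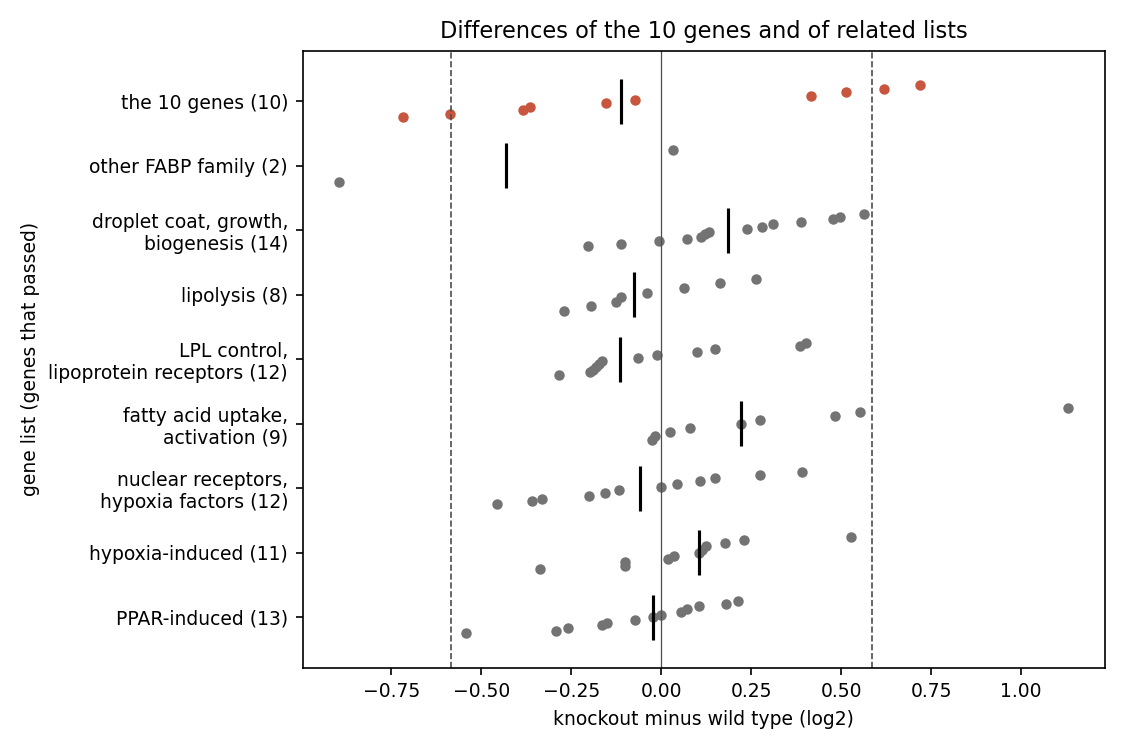
Differences between the arrays (knockout minus wild type, log2) of the 10 genes (red) and of the genes that passed the filter in 8 related lists (grey); black bars are medians and dashed lines mark 1.5-fold. The 10 genes spread from -0.72 to 0.72, while outside them only Fabp9 (-0.90) and Cav1 lie beyond the dashed lines; Cav1 is drawn as read, though its wild type value of 5.36 lies below background.

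Several of the 10 genes are made by other lung cells, and in bulk samples fewer cells of a type and less RNA per cell cannot be told apart. Adipocyte genes were near absent: 2 of 5 reached background on each array, and Adipoq and Lep were below it on both. Endothelial genes, from cells that also make Fabp4, reached background in 3 of 9 and 2 of 9 cases, and Cdh5, Kdr, Tek and Cldn5 were below it on both. Their summed linear signal was 318 and 309. Such sums, here and below, include the measured genes that lay below background, so those of lists near background hold background signal. Fibroblast genes reached background in 2 of 8 cases on each array, with sums of 261 and 317. All 3 that passed the filter were higher, with Inmt (6.10 and 6.87) the only one past 1.5-fold. Of genes of liver or gut, which make Fabp1, 2 of 5 reached background on each array, with sums of 184 and 145. Those 2, Apoa1 (5.73 and 5.52) and Ttr (5.85 and 5.33), were both lower in the knockout array, neither by 1.5-fold. Alb, Fabp2 and Vil1 lay below background on both arrays.

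Marker lists of other myeloid cells had larger median differences, in either direction, than these. All 7 interstitial macrophage genes measured read higher in the knockout array, with a median of 0.65 and a summed linear signal of 791 and 1452. Only 5 of them reached background with the wild type label, as C1qc (5.23 and 5.94) and Lyve1 (5.33 and 5.45) did not. C1qa differed by only 0.04. Of 6 monocyte genes that passed, 5 were lower, with a median of -0.86 and sums of 1321 and 750.2. Neutrophil genes summed to 6437 and 8839, with 5 of 6 higher. Eosinophil genes, whose cells also carry Siglec-F, summed to 469 and 2526, mostly through Ear6 (8.60 and 11.23). Of the 5 measured, 1 reached background with the wild type label and 3 with the knockout label, as Prg2 (4.71 and 5.76) and Epx (4.95 and 5.33) passed that level, while Ccr3 and Il5ra stayed below. Outside the myeloid cells, T, NK and B cell genes had no common direction, with 4 higher, 3 lower and a median of 0.04. They summed to 851 and 1179, with Gzma 2.21-fold and Cd3d 1.72-fold higher, while Cd3e (-0.13) and Cd79a (-0.15) were lower.

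Markers of epithelium and of alveolar macrophages differed gene by gene. Of 8 alveolar type 2 genes, 5 reached background on each array. Of the 7 that passed the filter, 3 were higher and 4 lower, with a median of -0.09. Sftpc, Sftpa1 and Cxcl15 were 1.72-fold, 1.80-fold and 1.89-fold higher in the knockout array, while Napsa was 1.80-fold lower. Their summed signal of 1595 and 1526 holds both directions, with Sftpc at 8.36 and 9.14 and Napsa at 9.91 and 9.07. Airway and type 1 genes summed to 5768 and 6313, mostly through Scgb1a1 (12.26 and 12.39). Of these 9 genes 6 were higher and 3 lower, with Scgb3a2 1.99-fold higher and Epcam 3.98-fold lower. Of the 11 alveolar macrophage markers, 8 were higher and 3 lower, with sums of 39438 and 41982. Past 1.5-fold were Krt79, 1.97-fold lower, and Siglecf, 1.66-fold lower, on the same side as Cidec and Lpl. The part of any of these cells in the differences of Fabp4, Fabp5, Lpl, Cidec and Hilpda was not tested.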

How the data were processed

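Sorted alveolar macrophages were measured on 1 array for each genotype. Per the submitters' processing notes the authors used RMA, and they deposited log2 values for 41345 rows. No source used here gives RMA's version, the array annotation or the build, and the log base follows from the method and the range (0.77 to 13.86). Gene names came from the platform annotation: 23521 have 1 symbol, 1814 several and 16010 are not listed. The rows of a gene were averaged. A gene was compared when its mean level was at or above 5.13, the median over rows. Background was the 95th percentile of 1432 receptor genes, and a fold for a gene below it on 1 array is "at least" and measured from it. Groups follow the labels' genotype. With 1 array per genotype no test was run, and the number of arrays limits the precision. Python 3.11.15, pandas 2.3.3 and statsmodels 0.14.6 were used, and the counting was tested on simulated data. All 10 Entrez identifiers matched the RefSeq table. The genes, lists and thresholds were chosen with earlier results of these data known. Named genes were the 10, the regulators, and in other lists those 1.5-fold apart and up to 4 with the largest difference. Other listed genes and markers were named after their values were seen. The alternatives were other filters, median, quantile and loess (span 0.3) normalization, an offset of 32 on the linear scale and the row with the highest mean.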

Additional observations from a re-analysis of the deposited data

How the results depend on the processing

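All 10 genes kept their sign under all 9 settings, though only 5 of the 8 alternatives changed a member's value. Lpl was past 1.5-fold in all 9 (from -0.82 to -0.67), Fabp5 in 8, and Fabp4 and Cidec in 7 each. The count of members at least 1.5-fold higher was 1 in place of 2 with quantile normalization, with loess centring (Fabp4 at 0.55 and 0.52) and with the row of highest mean (Fabp5 at 0.33). The count at least 1.5-fold lower was 1 in place of 2 with median centring and with the offset of 32 (Cidec at -0.53 and -0.57). The cause was not tested. The count more than 3 local spreads apart was 1 in place of 3 when measured from the median of the level bin, which lies at 0.12 for Fabp4 and Fabp5. The median of the 10 ranged from -0.20 with loess centring to -0.06 with median centring. With the offset of 32 the shares of all genes past 1.5-fold were 2.34% higher and 0.967% lower, and past 2-fold 0.496% and 0.144%, since an offset shrinks the differences of low genes. With no filter 0.528% of genes were at least 2-fold lower. With no filter 3 droplet coat and biogenesis genes (Plin5, Hsd17b13 and Ces1d) were 1.5-fold higher, against 4.37% of all genes. Hsd17b13 and Ces1d lay below background on both arrays, and Plin5 was at least 1.02-fold higher as measured from it. The count was 1 with the receptor-gene filter or with any of the 3 normalizations. The fatty acid uptake count was 2 with those normalizations and fell to 0 under the 75th percentile filter. No paired analysis was possible because each genotype has 1 array. Leaving out a replicate was likewise not run.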
